A study of Homo sapiens with 6 samples.

Results

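The enzymes that join glutathione, glucuronic acid or sulfate to other molecules were followed in the human lung adenocarcinoma cell line A549, with and without knockdown of METTL3. Members were all rows of the count table whose gene symbol belongs to the cytosolic and kappa glutathione transferases (GSTA, GSTM, GSTO, GSTP, GSTT, GSTZ, GSTK), the microsomal glutathione transferases (MGST), the UDP-glucuronosyltransferases of families UGT1 and UGT2, or the sulfotransferases (SULT). There were 52 such rows of 57781 in all, made up of 20 glutathione transferases, 19 glucuronosyltransferases and 13 sulfotransferases. Total RNA was sequenced from 3 libraries of vector-control A549 cells, labelled wild type, and from 3 libraries of A549 cells carrying short hairpin RNA against METTL3 (shMETTL3), the catalytic subunit of the enzyme that writes m6A, a methyl mark on mRNA. The labels name a single cell line, no treatment and no time point, and do not say whether the libraries of a group came from separate cultures, so that the p-values measure the spread between these libraries only, which may be technical. How many hairpins were used is not given in the sources used here. The knockdown columns of the count table are named METTL3_sh1 to METTL3_sh3, and the library titles end in rep1 to rep3. The libraries called replicates here may thus carry the same hairpin or different ones.

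Conjugation is the second phase of the handling of drugs, carcinogens, steroids and bilirubin: a cofactor is joined to a reactive or fat-soluble molecule, which is then pumped out of the cell. Glutathione transferases use the tripeptide glutathione, glucuronosyltransferases use UDP-glucuronic acid, and sulfotransferases use PAPS, the activated form of sulfate. Many of these genes are targets of NRF2 (gene NFE2L2), which binds antioxidant response elements and is held down by KEAP1, or of the aryl hydrocarbon receptor (AHR). A549 cells carry a mutation in KEAP1 and are known for high NRF2 activity.

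On the CPM scale, in which counts are divided by the scaled library total, METTL3 was at 49.4, 50.6 and 49.5 CPM in vector replicates 1, 2 and 3 and at 18.9, 19.9 and 19.3 CPM in shMETTL3 replicates 1, 2 and 3, so that the libraries bore out their labels. It stood at 38.8% of its vector level, with an adjusted p of 4.57e-16 from edgeR and p = 0.1 in an exact two-sided permutation test, which 3 libraries against 3 cannot go below. Library totals ran from 14931426 to 19108928 counts, at which 3 counts stand at 0.157 to 0.201 CPM. Of the 52 rows, 16 had no count in any library, 17 had counts but too few to be tested, and 19 were among the 15125 genes put to the quasi-likelihood test of edgeR. The knockdown libraries differed from the vector libraries over much of the transcriptome, with 66.6% of all tested genes changed (33.7% higher and 32.9% lower) at an adjusted p, after Benjamini and Hochberg, under 0.05. All 5 epithelial marker genes checked (KRT8, KRT18, KRT19, EPCAM and CDH1) were expressed, with a summed level of 8970 to 9580 CPM in vector and 3920 to 4320 CPM in shMETTL3 libraries, and all 5 were lower. Markers of other cell types were low. The 5 leukocyte markers summed to 0.334 to 1.04 CPM in vector and 5.93 to 7.11 CPM in shMETTL3 libraries, nearly all of it CD14, with CD3E at 0 in each library. The 3 endothelial markers in the table summed to 0 to 0.122 and 1.39 to 1.95 CPM, nearly all of it CDH5, with VWF at 0. The 6 fibroblast markers summed to 6.46 to 9.86 and 14.3 to 14.7 CPM, mostly COL1A1, and the 7 hepatocyte markers to 1.67 to 2.2 and 4.46 to 6.98 CPM, mostly CYP2E1 and SERPINA1, with APOA1, APOA2 and F9 at 0 throughout. The 5 alveolar markers summed to 1.96 to 2.23 and 2.43 to 3.04 CPM, mostly NAPSA, with SFTPA1 at 0. Among them SFTPB had 3, 1 and 1 counts in vector and 13, 24 and 11 counts in shMETTL3 libraries. NKX2-1 went the other way, with 0, 5 and 5 and then 1, 0 and 0 counts. The part of the markers of other cell types in the results was not tested.

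Short stretches of promoter are shown because they hold the letters of elements for which these genes are known. The reference promoters of RefSeq (build GRCh38.p14, 250 bases before to 50 after each start) were found for 17 of the 19 tested members, in 21 windows, and were searched on both strands for TGACNNNGC, the core of the antioxidant response element, and for GCGTG, the core of the element bound by the aryl hydrocarbon receptor. TGACNNNGC was present in 6 of the 21 windows, or 28.6%, against 13.3% of all 35116 promoters. GCGTG was present in 8 of the 21, or 38.1%, against 36.5%. The match in GSTP1 also holds the letters TGACTCA of an AP-1 site. Capitals mark the match, and each sequence is written on the strand of its gene, so that matches on the opposite strand appear as the reverse complement (SULT1C2 and UGT1A7). A match is a description of the letters and not a measured binding site.
GSTP1, TGACNNNGC, chr11:67583736-67583764, plus strand: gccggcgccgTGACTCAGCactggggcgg
GSTO1, TGACNNNGC, chr10:104254656-104254684, plus strand: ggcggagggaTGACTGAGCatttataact
GSTO1, TGACNNNGC, chr10:104254721-104254749, plus strand: cgagatgcttTGACACAGCcccttaagat
GSTA4, TGACNNNGC, chr6:52995275-52995303, minus strand: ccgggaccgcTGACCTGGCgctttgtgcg
SULT1C2, TGACNNNGC, chr2:108288823-108288851, plus strand: ccctcccaggGCCAGGTCAcagggtttgt
UGT1A6 from another of its starts, TGACNNNGC, chr2:233692782-233692810, plus strand: aggtgaaagcTGACACGGCcatagttggt
UGT1A6, GCGTG, chr2:233691492-233691516, plus strand: acaggaactcGCGTGccagccaggt
UGT1A7, GCGTG, chr2:233681828-233681852, plus strand: tgaataagtaCACGCcttcttttga
GSTM3, GCGTG, chr1:109741151-109741175, minus strand: ttccctaaatGCGTGagcattagga
The values of these genes are given below: of those printed for TGACNNNGC, GSTP1, GSTO1 and UGT1A6 were lower and GSTA4 and SULT1C2 higher in shMETTL3 libraries. The remaining match, in MGST1, which was lower, lies after the start of the gene and is not printed. All 6 members with these letters thus changed, beside 66.6% of all tested genes. SULT1C2 entered the test through the shMETTL3 libraries alone and so had to differ. The calls of GSTA4 and MGST1 did not hold in every setting. GCGTG is shown for 3 of the 8 members that hold it, the others being GSTM4, MGST3, GSTO2, GSTZ1 and SULT2B1. Of the 8, 5 were lower (UGT1A6, UGT1A7, MGST3, GSTO2 and GSTZ1), GSTM3 was higher, and GSTM4 and SULT2B1 did not pass the test, so that 75% changed, near the 66.6% of all tested genes given above.

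Most conjugation enzymes that could be tested in A549 cells were lower after METTL3 knockdown, and a few were higher. Of the 19 tested members, 16 changed, or 84.2%, beside 66.6% of all tested genes. Of these, 11 fell and 5 rose, and 7 changed by at least 1 on the log2 scale, of which 4 were higher and 3 lower. That size was reached by 17.6% of all tested genes. The fallers were GSTP1, GSTO1, GSTO2, GSTZ1, GSTK1, MGST1, MGST2, MGST3, UGT1A6, UGT1A7 and SULT1A1, and the risers GSTA4, GSTM2, GSTM3, UGT1A1 and SULT1C2. GSTM4, UGT2B7 and SULT2B1 did not pass the test. The groups of libraries did not overlap for 16 members, beside 69.4% of all tested genes. The median log2 fold change of the 19 members was -0.51, against 0.002 for all tested genes. GSTM2 and SULT1C2 passed the filter on low counts through the shMETTL3 libraries alone and so had to differ. With at least 10 counts asked of each library, 17 members were left, of which 11 were lower and 3 higher, and their median was -0.59. The median was -0.33 with scaling by library size alone and -0.04 without a filter, when 36 members entered. Fewer cells that express a gene and less of its mRNA per cell cannot be told apart in these bulk libraries.

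**Figure D1:**
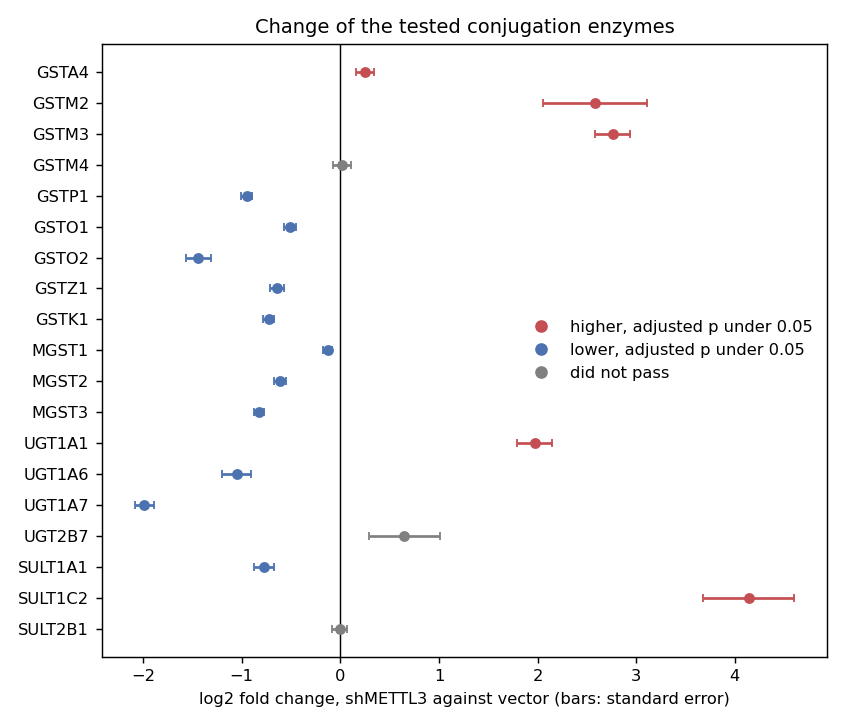
Log2 fold change of each tested conjugation enzyme, shMETTL3 against vector, with its standard error (edgeR's quasi-likelihood test on 3 against 3 libraries; colour gives the direction where the adjusted p was under 0.05). The changes run from -1.99 for UGT1A7 to 4.14 for SULT1C2, with 11 members to the left of 0 and 5 to the right in colour.

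GSTP1, the pi-class transferase that is abundant in many tumours and in lung epithelium, was at 655, 674 and 757 CPM in vector replicates 1, 2 and 3 and at 367, 349 and 364 CPM in shMETTL3 replicates 1, 2 and 3. Every shMETTL3 library was thus far below every vector library. GSTP1 fell to 51.8% of its vector level, with a log2 fold change of -0.95 (standard error 0.055, adjusted p = 1.49e-14, edgeR's quasi-likelihood test). It lies on chromosome 11 of GRCh37, from 67351213 to 67354127 on the plus strand. Of 22 tested protein-coding neighbours within 500 kb, 16 were lower and 4 higher, with a median log2 fold change of -0.34 and a range from -1.18 to 0.99. The background for this and the later counts of neighbours is 32.9% lower and 33.7% higher over all tested genes, and no difference from it was tested.

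The kappa and zeta classes fell as well. GSTK1, the kappa-class enzyme of mitochondria and peroxisomes, was at 267, 276 and 293 CPM in vector and 162, 175 and 167 CPM in shMETTL3 libraries, a log2 fold change of -0.73 (standard error 0.052, adjusted p = 1.51e-12, edgeR). GSTZ1, the zeta-class isomerase of tyrosine breakdown, fell from 35.2 ± 2.53 to 22.5 ± 1.05 CPM (SD, n = 3 libraries each), a log2 fold change of -0.64 (adjusted p = 1.74e-08, edgeR). For these members too the groups did not overlap.

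The omega-class transferases, which reduce mixed disulfides, dehydroascorbate and methylated arsenic, form a neighbouring pair on chromosome 10 and fell to different degrees. GSTO1 was at 69.9, 78.4 and 67.9 CPM in vector and 49.9, 49.6 and 52.8 CPM in shMETTL3 libraries, a log2 fold change of -0.51 (adjusted p = 4.45e-08, edgeR). GSTO2 was at 11.7, 12.4 and 11.3 CPM and then at 5.02, 4.09 and 3.91 CPM, a log2 fold change of -1.44 (standard error 0.13, adjusted p = 1.23e-10, edgeR), the largest fall among the glutathione transferases. The ratio of GSTO2 to GSTO1 counts within a library, into which no scaling enters, was 0.164 ± 0.005 in vector and 0.086 ± 0.014 in shMETTL3 libraries (SD, n = 3). The groups did not overlap in this ratio, which differed by -0.95 on the log2 scale. It is a description, since this and 3 further ratios of members were chosen after their values were seen. Of the 8 tested neighbours of the pair within 500 kb, 3 were lower, 1 was higher and 4 did not pass, with a median log2 fold change of -0.04.

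The microsomal enzymes, membrane proteins that protect lipids from oxidation and in part make leukotrienes, diverged in the size of their change. MGST3 was at 313, 316 and 338 CPM in vector and 183, 173 and 190 CPM in shMETTL3 libraries, a log2 fold change of -0.83 (standard error 0.052, adjusted p = 1.01e-13, edgeR). MGST2 fell from 49.3 ± 1.32 to 32.3 ± 1.08 CPM (SD, n = 3), a log2 fold change of -0.61 (adjusted p = 2.29e-09, edgeR). MGST1, the most abundant of the 3, was at 787, 748 and 779 CPM and then at 724, 707 and 684 CPM. Its libraries did not overlap, but its fall of 0.13 on the log2 scale (standard error 0.049, adjusted p = 0.0212, edgeR) was small. This call did not hold under other settings: the log2 fold change was -0.11 with upper-quartile scaling (adjusted p = 0.0554) and 0.04 with scaling by library size alone (adjusted p = 0.422). It was also lost without shMETTL3 replicate 2 (adjusted p = 0.059) and without shMETTL3 replicate 3 (adjusted p = 0.108).

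GSTP1 and MGST1 stood at the top of the family in both groups. By CPM, MGST1 was above GSTP1 in each of the 6 libraries. Per kilobase of canonical transcript, a length taken from the annotation and not from these libraries, GSTP1 was at 884 to 1020 and MGST1 at 809 to 851 CPM per kb in vector libraries, while in shMETTL3 libraries MGST1, at 739 to 783, was above GSTP1, at 471 to 495. The order in vector libraries thus rests on the lengths used. The ratio of GSTP1 to MGST1 counts was 0.831, 0.902 and 0.972 in vector and 0.508, 0.493 and 0.533 in shMETTL3 libraries, a difference of -0.82 on the log2 scale between groups that did not overlap. GSTP1 took 37.0% ± 1.42 of the summed level per kb of the 12 tested glutathione transferases in vector and 28.2% ± 0.562 in shMETTL3 libraries, and MGST1 took 33.0% ± 1.32 and 44.3% ± 0.908 (SD, n = 3). MGST3 took 11% ± 0.0667 and 9.12% ± 0.435, and GSTK1 took 10.7% ± 0.169 and 9.48% ± 0.491. Their levels per kb lay close together, at 270 to 292 and 259 to 284 CPM per kb in vector and 149 to 164 and 157 to 170 CPM per kb in shMETTL3 libraries. MGST3 was above GSTK1 in each of the 3 vector libraries by this measure, and the ranges overlapped. Summed over all 20 rows, glutathione transferases stood at 2260 ± 85.1 CPM in vector and 1560 ± 19 CPM in shMETTL3 libraries (SD, n = 3), or 69.1% of the vector level.

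**Figure D2:**
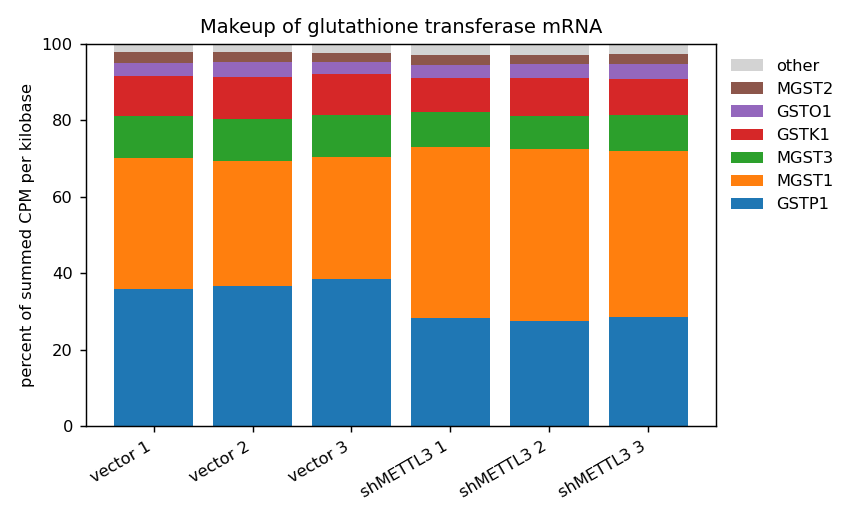
Share of each glutathione transferase in the summed level of the 12 tested ones, in percent of summed CPM per kilobase, for each of the 6 libraries (stacked bars; the 6 scarcest genes are drawn together as other). The GSTP1 share is 35.8% to 38.6% in the vector and 27.6% to 28.7% in the shMETTL3 libraries, and the MGST1 share is 31.8% to 34.4% and 43.2% to 44.8%.

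In the mu class, which detoxifies electrophiles, 2 of the 3 tested members rose (66.7%), and GSTM4 did not pass. Over all tested genes 33.7% were higher, and 66.6% changed in either direction. Of the 2 risers, GSTM2 entered the test through the shMETTL3 libraries alone. GSTM3, a mu-class enzyme of brain, testis and many epithelia, had 25, 24 and 14 counts in vector and 163, 171 and 132 counts in shMETTL3 libraries. These are 1.23 ± 0.322 and 8.43 ± 0.108 CPM (SD, n = 3), a 6.86-fold rise with a log2 fold change of 2.76 (standard error 0.18, adjusted p = 2.2e-13, edgeR). The shMETTL3 libraries lay close together, far above the vector libraries. Of the exonic bases of GSTM3, 202 also lie in an exon of a gene on the opposite strand. Whether the counting used strand is not given in the sources used here, and without it reads of the overlap cannot be told apart.

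GSTM2, which lies in the same cluster on chromosome 1, had 3, 3 and 1 counts in vector and 15, 15 and 17 counts in shMETTL3 libraries. The ratio of the scaled sums was 6.19, with a 95% Clopper-Pearson interval of 2.78 to 16.2 that covers counting error only. The fitted log2 fold change was 2.58, and its p is not given, since GSTM2 entered the test through the shMETTL3 libraries alone. All shMETTL3 libraries were above all vector libraries, which held no more than 3 counts each. GSTM2 shares 37.0% of its stretches of 100 bases with GSTM1, so that its reads could be split, and GSTM1 was at 0 counts in every library.

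GSTM4 lies next to GSTM2 and moved little. It was at 13.7, 13 and 15.1 CPM in vector and 13.1, 14.3 and 15.1 CPM in shMETTL3 libraries, with groups that overlapped. Its log2 fold change was 0.02 (95% interval -0.18 to 0.21, adjusted p = 0.893, edgeR). The ratio of GSTM3 to GSTM4 counts was 0.0895 ± 0.0287 in vector and 0.598 ± 0.046 in shMETTL3 libraries (SD, n = 3), a difference of 2.80 on the log2 scale between groups that did not overlap. GSTM5 had no count. Of 15 tested neighbours within 500 kb of the mu cluster, 6 were higher, 2 lower and 7 did not pass, with a median log2 fold change of 0.16.

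Among the alpha class, GSTA4, which removes the lipid peroxidation product hydroxynonenal, was at 15.4, 16.1 and 14.5 CPM in vector and 18.5, 19.3 and 16.8 CPM in shMETTL3 libraries. The groups did not overlap, but their distance was short, with a log2 fold change of 0.25 (standard error 0.087, adjusted p = 0.014, edgeR). Without shMETTL3 replicate 2 the call was lost, at 0.21 (adjusted p = 0.0832). GSTA1 had 1, 7 and 8 counts in vector and 5, 7 and 5 in shMETTL3 libraries, and GSTA2 had 4, 8 and 2 and then 7, 6 and 5 counts. Both were too low to be tested, with overlapping groups. GSTA3 and GSTA5 had no count, nor had GSTT1 and GSTT2 of the theta class. GSTT2 shares 71.6% of its stretches of 100 bases with its copy GSTT2B, so that a count of 0 says little about its mRNA.

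Summed over their rows, glucuronosyltransferases were scarcer than glutathione transferases, at 38.3 against 2260 CPM in vector libraries. In these libraries UGT1A7 still stood above GSTA4, GSTM2, GSTM3, GSTM4 and GSTO2 by CPM. Genes of the UGT1A locus changed in opposite directions. The UGT1A genes on chromosome 2 of GRCh37 (from 234526279 to 234681946, plus strand) each have their own first exon, which encodes the substrate-binding part, and are spliced to the same last 4 exons, of 1479 bases in the annotation used, out of 2361 to 2455 bases per canonical transcript. Reads in the common exons cannot be given to a single gene. UGT1A8 and UGT1A10 had 0 counts in every library although UGT1A7 had up to 502, so reads of the common exons were not added to every row of the locus. Whether they were dropped or given to some rows is not given in the sources used here.

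UGT1A7, a form of stomach and airway known for its action on tobacco carcinogens, had 502, 450 and 493 counts in vector and 154, 123 and 116 counts in shMETTL3 libraries. It fell from 28.4 ± 1.68 to 7.14 ± 0.932 CPM (SD, n = 3), to 25.2% of the vector level, with a log2 fold change of -1.99 (standard error 0.098, adjusted p = 3.85e-16, edgeR). This was the largest fall of any tested member. UGT1A6, which conjugates small planar phenols, had 125, 118 and 111 counts in vector and 62, 75 and 49 counts in shMETTL3 libraries, a log2 fold change of -1.05 (standard error 0.15, adjusted p = 5.1e-07, edgeR). Of the exonic bases of UGT1A6, 404 overlap a gene on the opposite strand.

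UGT1A1, the enzyme that conjugates bilirubin, rose from the same locus. It had 28, 27 and 33 counts in vector and 135, 122 and 116 counts in shMETTL3 libraries. These are 1.73 ± 0.253 and 6.79 ± 0.634 CPM (SD, n = 3), a 3.92-fold rise with a log2 fold change of 1.97 (standard error 0.18, adjusted p = 1.42e-10, edgeR). All libraries of each of the 3 genes were separated by group.

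Through these changes the makeup of the locus shifted. UGT1A7 held 75.6% ± 0.447 of the UGT1A counts in vector and 39.8% ± 2.66 in shMETTL3 libraries, and UGT1A1 held 4.6% ± 0.451 and 38.0% ± 1.29 (SD, n = 3). The share of UGT1A6 was 18.5% ± 1.32 and 18.9% ± 3.4, within the spread of the libraries. The ratio of UGT1A7 to UGT1A1 counts was 17.9, 16.7 and 14.9 in vector and 1.14, 1.01 and 1 in shMETTL3 libraries, a difference of -3.97 on the log2 scale. The summed level of the 9 UGT1A rows was 37.5 ± 2 CPM in vector and 17.8 ± 1.27 CPM in shMETTL3 libraries, or 47.6%. The 5 tested neighbours of the locus within 500 kb changed by -0.22 to 0.36 on the log2 scale, with 3 higher, 1 lower and 1 that did not pass. Among the rest of the locus, UGT1A9 had 5, 3 and 9 counts in each group, UGT1A3 had 3, 0 and 2 and then 5, 5 and 4 counts, and UGT1A4 and UGT1A5 had no more than 3 counts in any library.

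**Figure D3:**
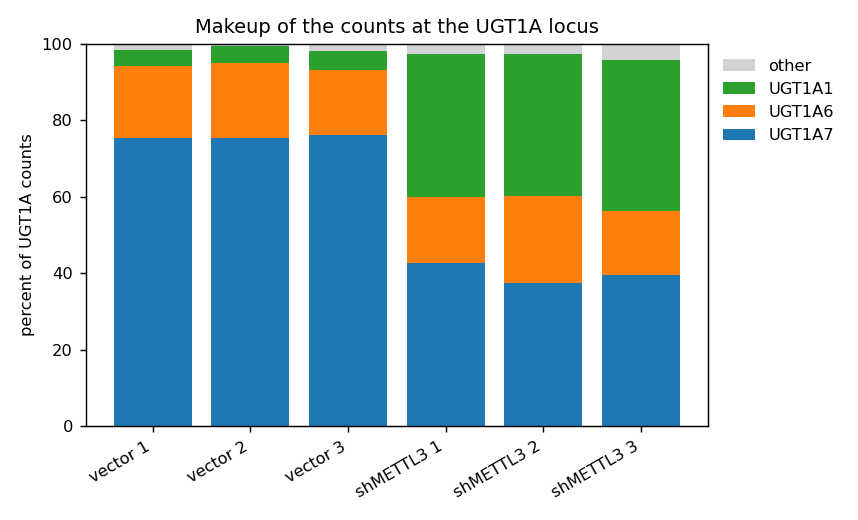
Share of each UGT1A gene in the counts of the locus, in percent of all UGT1A counts, for each of the 6 libraries (stacked bars; the 6 scarcest rows are drawn together as other). UGT1A7 takes 75.3% to 76.1% in the vector and 37.4% to 42.7% in the shMETTL3 libraries, where UGT1A1 takes 37.1% to 39.5%.

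The UGT2 family, which conjugates steroids, bile acids and opioids in liver, was close to silent. UGT2B7 had 17, 10 and 10 counts in vector and 13, 30 and 20 counts in shMETTL3 libraries, and the groups overlapped. Its log2 fold change of 0.65 did not pass (95% interval -0.09 to 1.39, adjusted p = 0.111, edgeR), although it did with scaling by library size alone (0.82, adjusted p = 0.0461) and without shMETTL3 replicate 1 (0.93, adjusted p = 0.0297). UGT2B4 had 1, 1 and 0 counts and then 10, 10 and 8 counts, and UGT2B11 had 0, 1 and 0 and then 6, 6 and 7 counts. The ratios of their scaled sums were 12.9 (95% Clopper-Pearson interval 3.26 to 112) and 17.5 (2.79 to 728). Both failed the filter. Both were called higher without it, but nearly all their counts came from the shMETTL3 libraries. The p-values are therefore not given, and the calls add no support. UGT2B11 overlaps a gene on the opposite strand over 435 exonic bases. UGT2B15, UGT2B17 and UGT2B28 had at most 1 count in any library, and UGT2A1, UGT2A2, UGT2A3 and UGT2B10 had none.

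Of the 13 sulfotransferase rows, 3 were tested. SULT1A1, the main phenol sulfotransferase, was at 25.7, 20.4 and 23.0 CPM in vector and 10.9, 14.4 and 15.4 CPM in shMETTL3 libraries. It fell to 58.7% of the vector level, with groups that did not overlap and a log2 fold change of -0.78 (standard error 0.11, adjusted p = 3.07e-07, edgeR). SULT1A1 shares 10.2% of its stretches of 100 bases with the other members SULT1A2, SULT1A3 and SULT1A4, which themselves had at most 7 counts in any library. It shares 77.6% with a further annotated gene, ENSG00000289755, so its reads could be split. SULT1A3 and SULT1A4 share 99.1% and 99.0% of theirs with another member, so their counts of 0 to 4 cannot be read as their levels.

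SULT1C2, a sulfotransferase of stomach, kidney and fetal lung, was nearly absent from vector libraries. It had 4, 0 and 2 counts in vector and 49, 42 and 30 counts in shMETTL3 libraries. The ratio of the scaled sums was 18.6 (95% Clopper-Pearson interval 8.30 to 51.7, counting error only). Since SULT1C2 entered the test through the shMETTL3 libraries alone, its p is not given. The fitted log2 fold change, 4.14, is uncertain so near the floor and ran from 3.58 to 5.01 as each library was left out in turn. Its neighbours in the cluster on chromosome 2, SULT1C3 and SULT1C4, had no count and at most 2 counts. Of the 4 other tested genes within 500 kb, 1 was higher and 3 did not pass.

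SULT2B1, which sulfates cholesterol and is typical of skin and other epithelia, was at 22.5, 24.8 and 23.9 CPM in vector and 22.9, 23.2 and 24.7 CPM in shMETTL3 libraries. The groups overlapped, and the log2 fold change was -0.01 (95% interval -0.16 to 0.15, adjusted p = 0.937, edgeR). Its direction changed with the setting, to 0.17 with scaling by library size alone (adjusted p = 0.056), and 174 of its exonic bases overlap a gene on the opposite strand. SULT1E1, the oestrogen sulfotransferase, had 5, 6 and 1 counts and then 1, 1 and 0 counts, a ratio of scaled sums of 0.154 (95% Clopper-Pearson interval 0.0167 to 0.691), and was not tested. SULT1B1 had 7, 2 and 1 counts and then 2 in each library, and SULT1A2 had 2, 3 and 5 and then 6, 5 and 7 counts. SULT2A1 and SULT4A1 had none, and SULT6B1 had 1 count in 1 library. Summed over the 13 rows, sulfotransferases stood at 47.5 ± 1.67 CPM in vector and 39.9 ± 2.87 CPM in shMETTL3 libraries (SD, n = 3).

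The genes that supply glutathione, remove it or use it otherwise did not move as a block. Of the 23 tested genes of this list, 12 rose, 9 fell and 2 did not pass, so that 91.3% changed, beside 66.6% of all tested genes (33.7% higher, 32.9% lower). The median log2 fold change was 0.13. ANPEP, which is among the risers, had 0, 2 and 5 counts in vector and 24, 31 and 17 in shMETTL3 libraries, and passed the filter through the latter alone. The subunits of the rate-limiting enzyme of glutathione synthesis rose, GCLC from 101 to 147 CPM (log2 fold change 0.54, adjusted p = 6.18e-10, edgeR) and GCLM from 89.2 to 134 CPM (0.59, adjusted p = 4.1e-10, edgeR). GSS, which completes that synthesis, fell from 102 to 61.1 CPM (-0.74, adjusted p = 5.86e-12, edgeR), and GSR, which regenerates reduced glutathione, fell from 540 to 309 CPM (-0.80, adjusted p = 1.05e-13, edgeR). Both were named after their values were seen. CHAC1, which degrades glutathione, rose from 1.78 to 8.92 CPM, a log2 fold change of 2.32 (adjusted p = 2.7e-12, edgeR). GPX2, a glutathione peroxidase of gut and airway epithelium, fell from 747 to 322 CPM, a log2 fold change of -1.21 (adjusted p = 1.08e-17, edgeR), and OPLAH, which returns oxoproline to glutamate, fell by 1.44 on that scale (adjusted p = 3.45e-12, edgeR). The other tested GPX genes, named after their values were seen, went both ways. GPX1 (0.90), GPX4 (0.38) and GPX8 (0.20) rose, and GPX3 (-0.47) fell. Over the whole list, 20 of 23 genes had groups without overlap, beside 69.4% of all tested genes.

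Of 9 tested genes around UDP-glucuronic acid, 3 changed (33.3%, beside 66.6% of all tested genes). All 3 rose: UXS1, which turns UDP-glucuronic acid into UDP-xylose, at a log2 fold change of 0.54, SLC35D1, which carries UDP-glucuronic acid into the endoplasmic reticulum, at 0.33, and UGDH, which makes it, at 0.14 (adjusted p = 1.72e-08, 0.000694 and 0.0128, edgeR). The call of UGDH was lost without shMETTL3 replicate 1 (0.13, adjusted p = 0.0651). Of 13 tested genes around sulfate, 6 rose, 3 fell and 4 did not pass, and the 69.2% that changed are near the 66.6% of all tested genes. The enzymes that make PAPS went apart, with PAPSS2 rising from 30.7 to 58.5 CPM (log2 fold change 0.93, adjusted p = 9.39e-13, edgeR) and PAPSS1 falling from 53.4 to 45.2 CPM (-0.24, adjusted p = 0.0018, edgeR). The fall of PAPSS1 was -0.07 with scaling by library size alone (adjusted p = 0.386). STS, the steroid sulfatase, which takes sulfate off again, rose from 13.4 to 30.1 CPM (1.17, adjusted p = 1.09e-12, edgeR), and SLC26A11, a sulfate transporter, rose by 0.70 (adjusted p = 2.76e-07, edgeR).

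Of 9 tested exporters of conjugates, 2 rose, 4 fell and 3 did not pass, a share changed of 66.7% beside 66.6% of all tested genes. ABCC3, a basolateral pump for glucuronides, rose from 562 to 782 CPM (log2 fold change 0.48, adjusted p = 1.14e-08, edgeR), and ABCC5 rose by 0.54 (adjusted p = 1.79e-07). ABCG2, which exports sulfates, fell by 0.49 (adjusted p = 1.48e-07). Of 5 tested enzymes of methyl, acetyl and glycine conjugation, 1 rose, 1 fell and 3 did not pass (40% changed), and NAT1 rose by 0.77 (adjusted p = 3.73e-05, edgeR for each).

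Among 16 tested regulators, 5 rose, 7 fell and 4 did not pass, so that 75% changed, near the 66.6% of all tested genes. NFE2L2 was at 137, 141 and 136 CPM in vector and 116 CPM in each shMETTL3 library, a log2 fold change of -0.25 (adjusted p = 8.15e-05, edgeR), and KEAP1 rose by 0.28 (adjusted p = 0.000227, edgeR). The fall of NFE2L2 did not pass with scaling by library size alone (-0.08, adjusted p = 0.193). AHR was at 98.8, 95.6 and 88.5 CPM and then at 94.0, 84.1 and 87.5 CPM, with overlapping groups and an adjusted p of 0.161 from edgeR, which became 0.017 without vector replicate 3. AHRR, the repressor of AHR and itself one of its known targets, rose from 1.22 to 19.5 CPM, a log2 fold change of 4.0 (standard error 0.16, adjusted p = 4.03e-18, edgeR). Of other known targets of AHR, named after their values were seen, CYP1B1 rose by 0.75 (adjusted p = 4.64e-13, edgeR), whereas UGT1A6 fell. UGT1A1, of the same locus as UGT1A6, rose by 1.97, so that the locus did not move in 1 direction. CYP1A1 had 5, 2 and 1 counts in vector and 735, 769 and 609 counts in shMETTL3 libraries, and so passed the filter through the shMETTL3 libraries alone. The ratio of its scaled sums was 244 (95% Clopper-Pearson interval 123 to 565, counting error only). RXRA, the partner of nuclear receptors, rose by 1.29 (adjusted p = 8.68e-17) and ESRRA fell by 0.75 (adjusted p = 3.9e-11, edgeR for both).

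Beside the conjugation enzymes, the families that act before them in the handling of foreign molecules split otherwise by direction. Over all tested genes 66.6% changed, 33.7% higher and 32.9% lower. Of 9 tested aldo-keto reductases of family AKR1, 5 rose and 4 fell, with a median log2 fold change of 0.21. Of 19 tested cytochromes P450, 12 rose, 4 fell and 3 did not pass, with a median of 0.69. The share that changed, 84.2%, was that of the conjugation enzymes. Some of the risers, CYP1A1 among them, passed the filter through the shMETTL3 libraries alone. The difference between these families and the conjugation enzymes was not tested.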

How the data were processed

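RNA sequencing libraries of A549 cells were grouped by their titles into 3 vector and 3 shMETTL3 libraries. The authors mapped reads to hg19 with HISAT2 and counted them per gene with HTSeq. The submitters' processing notes give cutadapt 3.0, HISAT2 2.2.1, SAMtools 1.13 and HTSeq 0.13.5, whereas other versions stand in the paper. The annotation, counting mode and strand setting are not given in the sources used here. The deposited values are raw counts per gene symbol, 57781 rows, with 14931426 to 19108928 counts a library.

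Counts were scaled by TMM, filtered with filterByExpr (10 counts in 3 libraries, 15 in all) and tested with glmQLFTest of edgeR 4.0.16 in R 4.3.3, on a design of group only, with Benjamini-Hochberg adjustment over all 15125 genes tested. Standard errors were taken as the unshrunk coefficient over the root of F. Alternatives were RLE and upper-quartile scaling, library size alone, other filters, DESeq2 1.42.0, voom of limma 3.58.1, a replicate block, other thresholds, and each library left out. The functions were tested on simulated counts. Positions and canonical transcripts come from GENCODE lifted to GRCh37, which may differ from the authors' annotation. Stretches of 100 bases of each member's canonical transcript were looked up in the transcripts of all other genes. Every tested member is named, and of each partner list the 3 largest changes at an average log2 CPM of at least 2, plus fixed regulators and cofactor genes. Some partner genes that this rule names are not reported here. Members and lists were chosen with earlier results of these data known.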

Additional observations from a re-analysis of the deposited data

How the results depend on the processing

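The 16 changed conjugation enzymes became 7 when an absolute log2 fold change of at least 1 was asked, with 3 lower in place of 11, and 8 in place of 53 of the 75 tested genes on the partner lists (70.7% changed, beside 66.6% of all tested genes, of which 17.6% passed with that fold). With at least 10 counts in every library, 3 in place of 5 members were higher, because GSTM2 and SULT1C2 left the test. The median of the tested members, -0.51, was -0.33 with scaling by library size alone, which moved all genes by 0.17 and made 65.8% of the changed genes higher in place of 50.6%. It was -0.04 without a filter, with 36 members tested, and -0.59 with the stricter filter. As each library was left out, it ran from -0.55 to -0.45 (the latter without vector replicate 2), the changed members from 14 to 17 and METTL3 from -1.38 to -1.34. METTL3 kept its call throughout. Of the 19 tested members, 14 kept direction and call in every other scaling, filter, tool and left-out library that tested them, which for GSTM2 and SULT1C2 leaves out the stricter filter. The exceptions were MGST1, at 0.04 with library size alone, GSTA4, UGT2B7, and GSTM4 and SULT2B1, which never passed. GSTM4 ran from -0.04 to 0.07 as libraries were left out, at -0.04 without vector replicate 2 and -0.03 without shMETTL3 replicate 3. SULT2B1 ran from -0.05 to 0.02, and was 0.02 with upper-quartile scaling, 0.17 with library size alone, 0.01 with the stricter filter, 0.02 without vector replicate 2 and 0.01 without shMETTL3 replicate 1 or 2. AHR was 0.08 with library size alone. The cause was not tested.

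The groups share replicate numbers. The deviations of same-numbered libraries correlated at -0.0066 to 0.052, and those of differently numbered libraries at -0.061 to 0.026. With 3 libraries a group, such weak correlations cannot decide whether the numbers pair the libraries. With the replicate block, 16 members changed, 11 lower and 5 higher, at a median of -0.51. Low members are limited by depth, since 3 counts are 0.157 to 0.201 CPM.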
